A study of Mus musculus with 4 samples.

Results

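The genes described here are the receptors through which cells sense type I and type II interferons, with a kinase, 2 transcription factors and 2 feedback inhibitors that act directly below them: Ifnar1, Ifnar2, Ifngr1, Ifngr2, Jak2, Stat2, Stat3, Socs1 and Socs3. They were chosen by gene symbol, and all 9 were found among the 12584 genes of the count table. Each was read by deposited cell class and by library.

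A type I interferon binds a receptor made of an IFNAR1 and an IFNAR2 chain, and interferon-γ binds a receptor made of IFNGR1 and IFNGR2 chains. The kinases bound to these chains phosphorylate STAT proteins: the complex ISGF3, which holds STAT2 and IRF9, reads interferon-stimulated response elements (ISREs), whereas STAT dimers read gamma-activated sites (GAS). STAT3 carries signals of IL-6 and IL-10 family cytokines, and the SOCS proteins, whose genes are themselves STAT targets, inhibit the kinases and shut the signal down. In tumour macrophages and dendritic cells (DCs) these pathways are known to control antigen presentation and the chemokines that attract T cells.

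The study profiled immune cells of RTT tumours by single-cell RNA sequencing (scRNA-seq) with a probe-based chemistry. RTT cells are a therapy-resistant melanoma line, YUMM1.7-OVA (Braf V600E and Cdkn2a-/- among its alleles) selected under a BRAF inhibitor, and were grown subcutaneously in Rag2-/- mice, which make no T or B cells of their own. Every group received adoptive cell transfer (ACT) of activated OT-1 CD8+ T cells, and CD45+ live cells were sorted 72 h later. The 4 groups had 1 library each, made from 3 pooled tumours. CTRL tumours carried an mCherry vector. IRF3/7 tumours were a transduced bulk line in which the SFFV promoter drove Irf3 and Irf7 cDNAs in the cancer cells. COX2i tumours were mCherry tumours in mice given the COX2 inhibitor celecoxib, and COX2i + 5-AZA tumours were mCherry tumours in mice given celecoxib and the DNA methyltransferase inhibitor 5-azacytidine. The study's methods give the host mice as young adults within an age range common to all strains, give the T cell donors a wider range, and give no age by group.

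The table held 34447 cells, with 8953 in CTRL, 6329 in IRF3/7, 9133 in COX2i and 10032 in COX2i + 5-AZA. The libraries held 26356819 to 78722763 unique molecular identifiers (UMIs), with the lowest total in IRF3/7. A UMI of Ptprc, which encodes CD45, was found in 78.6% to 90.9% of the cells of a library. In each library, 28.1% to 31.7% of the cells shared the first 16 bases of their barcode with a cell of another library. Only these bases were compared, and the paper gives the libraries as samples of a multiplexed experiment. With 1 library per group, no difference between groups was tested against a spread between animals, and no p-value is given. Levels are in CPM, the UMIs of a gene summed over all cells of a class in a library and scaled to 1000000 UMIs of those cells, and the 95% intervals beside ratios cover counting error only. Levels are compared between libraries and classes and not between genes, since probe pairs differ from gene to gene. A ratio is counted as 2-fold when it was at least 2-fold and rested on at least 20 UMIs in the 2 libraries together.

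Monocytes and macrophages together made up most cells of every library, 7614 in CTRL, 5035 in IRF3/7, 7378 in COX2i and 8801 in COX2i + 5-AZA. Their mix differed: monocytes were 139 of these cells in CTRL, 4596 in IRF3/7, 558 in COX2i and 4684 in COX2i + 5-AZA. A ratio over the pooled cells therefore moves both with this mix and with the level inside each class, so for each of the 9 genes values within classes are given as well.

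In these pooled cells the level of each receptor chain lay within 2-fold across the 4 libraries, and those of Jak2, Stat2, Socs1 and Socs3 differed more widely. Against CTRL, 4 of the 9 genes (Jak2, Stat2, Socs1 and Socs3) were at least 2-fold higher in IRF3/7 and none was 2-fold lower. Among all 11793 genes tested in that comparison, 9.16% were 2-fold higher and 32.2% were 2-fold lower. In COX2i 1 gene of the 9, Socs1, was 2-fold higher than in CTRL and none was lower, where 1.93% of all genes were higher and 4.7% lower. In COX2i + 5-AZA 3 of the 9 (Stat2, Socs1 and Socs3) were 2-fold higher than in CTRL and none was lower, where 5.65% of all genes were higher and 11.3% lower. Against COX2i alone, COX2i + 5-AZA had 2 of the 9 (Stat2 and Socs1) 2-fold higher and none lower, with 6.16% of all genes higher and 9.77% lower. Against IRF3/7, COX2i + 5-AZA had none of the 9 higher and 3 (Jak2, Stat2 and Socs1) 2-fold lower, with 20.8% of all genes higher and 6.63% lower.

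The median log2 ratio of the 9 genes was 0.71 in IRF3/7 against CTRL, where the median of all genes was -0.55. The corresponding medians were -0.01 and 0.01 in COX2i against CTRL, and 0.28 and -0.16 in COX2i + 5-AZA against CTRL. Between COX2i + 5-AZA and COX2i they were 0.12 and -0.19, and between COX2i + 5-AZA and IRF3/7 they were -0.43 and 0.33. Scaling by median-ratio size factors in place of total UMIs shifted every log2 ratio of IRF3/7 against CTRL by 0.52, those of COX2i + 5-AZA by 0.16 against CTRL and 0.19 against COX2i, and those of COX2i + 5-AZA against IRF3/7 by -0.31.

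**Figure D1:**
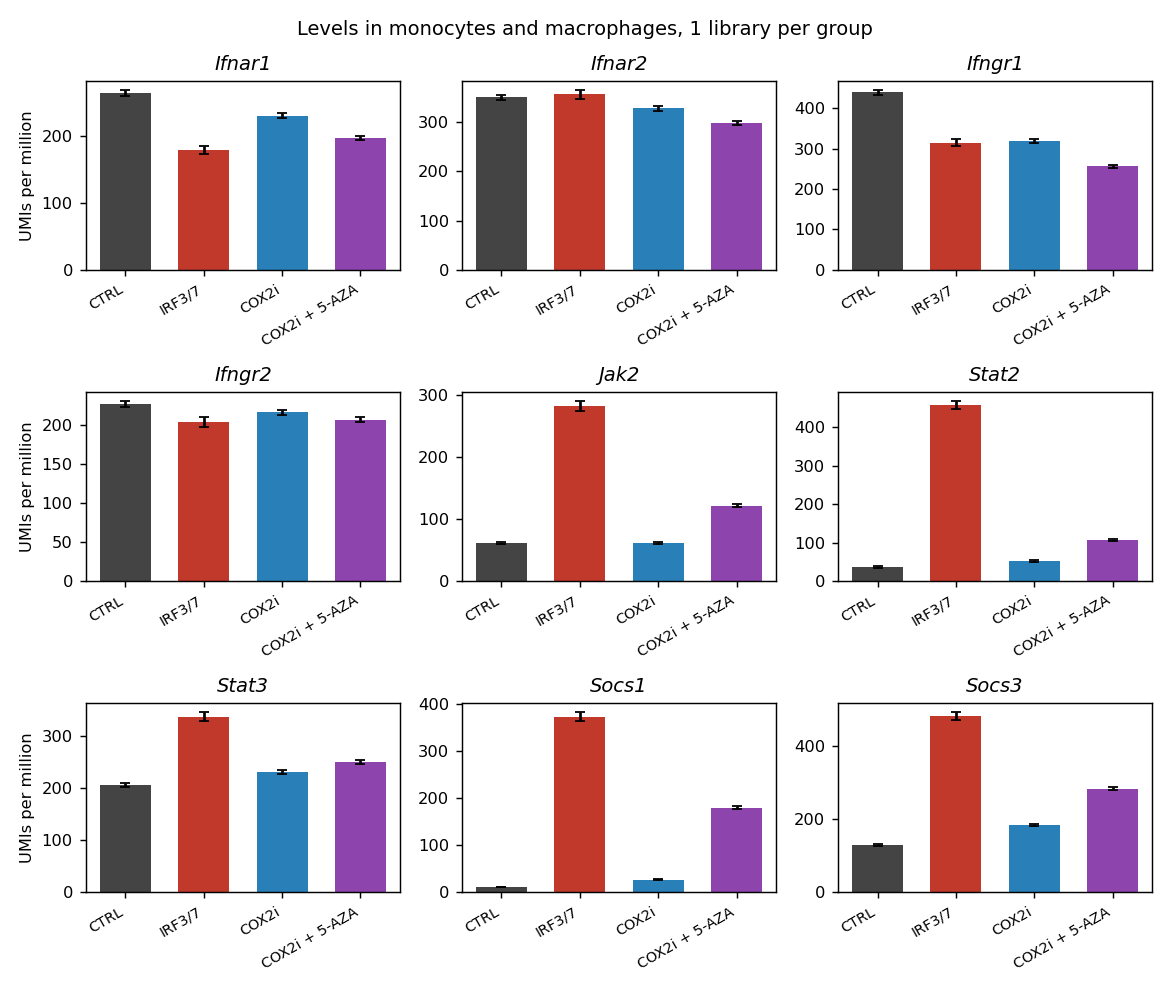
Level of each of the 9 genes in monocytes and macrophages summed per library, 1 panel per gene, in CPM on an axis that starts at 0, with 1 bar per library and exact 95% Poisson intervals as error bars. Socs1 ran from 11.0 in CTRL to 374 in IRF3/7, while Ifngr2 lay between 204 and 227.

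Ifnar1 (ENSMUSG00000022967, GRCm38 chr16:91485238-91507441, plus strand) encodes the receptor chain that binds the kinase TYK2. Its level in monocytes and macrophages was 265 CPM in CTRL, 180 in IRF3/7, 231 in COX2i and 197 in COX2i + 5-AZA. It was thus highest in CTRL and lowest in IRF3/7, with a log2 ratio of -0.56 (95% interval -0.62 to -0.51) between them. That ratio was -0.04 after scaling by size factors. Within classes, IRF3/7 against CTRL gave ratios from -0.30 in Infl_Mono, the inflammatory monocyte class, to 0.02 in cDC2, the class of type 2 conventional DCs.

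Ifnar2 (ENSMUSG00000022971, chr16:91372783-91405589, plus strand) encodes the chain that binds JAK1 and docks STAT2. Its level was 350.0 CPM in CTRL, 356 in IRF3/7, 328 in COX2i and 299 in COX2i + 5-AZA. The CTRL and IRF3/7 levels differed by 0.03 on the log2 scale (95% interval -0.02 to 0.07), and by 0.55 after scaling by size factors. No class reached 2-fold in any comparison for either chain. Across immune classes within a library, the highest level of Ifnar1 was 1.81 to 2.07 times the lowest, and that of Ifnar2 was 1.78 to 3.61 times the lowest. For each Ifnar2 UMI there were 0.758 Ifnar1 UMIs in CTRL, 0.504 in IRF3/7, 0.705 in COX2i and 0.661 in COX2i + 5-AZA.

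Ifngr1 (ENSMUSG00000020009, chr10:19591949-19610229, plus strand) encodes the ligand-binding chain of the interferon-γ receptor. Across immune classes within a library, its highest level was 5.38 to 8.88 times its lowest. NK cells held 1189 CPM in IRF3/7, 1337 in COX2i and 1108 in COX2i + 5-AZA, the top level of each of these libraries among classes of 50 or more cells. In CTRL, which had 11 NK cells and gave no NK value, cDC2 were at the top with 1334 CPM. NK cells gave 26.2% of all Ifngr1 UMIs of IRF3/7 from 7.63% of its UMIs. Among classes of 50 or more cells, the lowest level of each library was in Myofibrobl, the non-immune class, with 76.5 CPM in CTRL, 58.4 in IRF3/7, 107 in COX2i and 78.2 in COX2i + 5-AZA. Mast cells, which were fewer, held 56.5 CPM in CTRL (38 cells) and 38.2 in COX2i + 5-AZA (23 cells).

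Differences in Ifngr1 of 2-fold or more from CTRL were found in cDC2, neutrophils and the class Macro. In cDC2 it measured 1334 CPM in CTRL, 528 in IRF3/7, 1141 in COX2i and 565 in COX2i + 5-AZA. The IRF3/7 and COX2i + 5-AZA values lay together well below the other pair, with log2 ratios to CTRL of -1.34 (95% interval -1.46 to -1.22) and -1.24. The monocyte markers measured in the same cDC2 summed to 599.7 CPM in CTRL, 8109 in IRF3/7, 947 in COX2i and 2763 in COX2i + 5-AZA, and their part in this result and in those of Stat2 and Socs1 in cDC2 was not tested. In neutrophils Ifngr1 was 544 CPM in CTRL and 176 in COX2i + 5-AZA, a log2 ratio of -1.63 (95% interval -1.97 to -1.29), from 65 and 196 cells. Neutrophil markers in that class summed to 24461 CPM in CTRL and 89640 in COX2i + 5-AZA, and macrophage markers to 33355 and 4439 CPM. Their part in this result and in that of Socs1 in neutrophils was not tested. In the class Macro it was 500.1 CPM in CTRL and 177 in COX2i + 5-AZA, 0.353 times the CTRL level (95% interval of the log2 ratio -1.79 to -1.21), from 105 cells against 73 in CTRL. Macrophage markers in Macro summed to 45245 CPM in CTRL and 16712 in COX2i + 5-AZA, monocyte markers to 1996 and 3130 CPM, and their part in the result was not tested.

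These 3 of 8 classes were at least 2-fold lower in COX2i + 5-AZA than in CTRL, and 2.67% of all genes were 2-fold lower in at least 3 of the 8 classes. TAM_C1q, the macrophages named for complement C1q, had 433 CPM in CTRL, 311 in COX2i and 278 in COX2i + 5-AZA. Over monocytes and macrophages the level was 439 CPM in CTRL, 315 in IRF3/7, 319 in COX2i and 257 in COX2i + 5-AZA. The log2 ratio of COX2i + 5-AZA to CTRL was -0.78 (95% interval -0.80 to -0.75), or -0.61 after scaling by size factors. The ratio of IRF3/7 to CTRL was -0.48 (95% interval -0.52 to -0.44) but turned to 0.04 with size factors.

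Ifngr2 (ENSMUSG00000022965, chr16:91547072-91565623, plus strand) encodes the signalling chain of the interferon-γ receptor, which brings in JAK2. Under scaling to total UMIs it had the narrowest range of the 9 genes over the 4 libraries, with 227 CPM in CTRL, 204 in IRF3/7, 216 in COX2i and 207 in COX2i + 5-AZA in monocytes and macrophages. Its log2 ratio to CTRL was -0.15 (95% interval -0.20 to -0.10) in IRF3/7, which became 0.37 with size factors. NK cells were the exception among classes, with 23.9 CPM in IRF3/7, 39.2 in COX2i and 41.7 in COX2i + 5-AZA, the lowest level of each library.

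NK cells thus had the highest level of one chain of the interferon-γ receptor and the lowest of the other. For each Ifngr2 UMI, NK cells held 49.8 Ifngr1 UMIs in IRF3/7 (95% interval 37.4 to 67.7), 34.1 in COX2i (95% interval 18.3 to 71.8) and 26.6 in COX2i + 5-AZA (95% interval 21.3 to 33.7). The same ratio was 1.94 in monocytes and macrophages of CTRL, 1.54 in IRF3/7, 1.47 in COX2i and 1.24 in COX2i + 5-AZA. In cDC2 it was 6.02 in CTRL, 2.67 in IRF3/7, 6.24 in COX2i and 3.40 in COX2i + 5-AZA. Macrophage markers in the NK cells summed to 1047 CPM in IRF3/7, 1732 in COX2i and 3522 in COX2i + 5-AZA, the order in which Ifngr2 was higher and the ratio lower, and their part in the result was not tested.

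**Figure D2:**
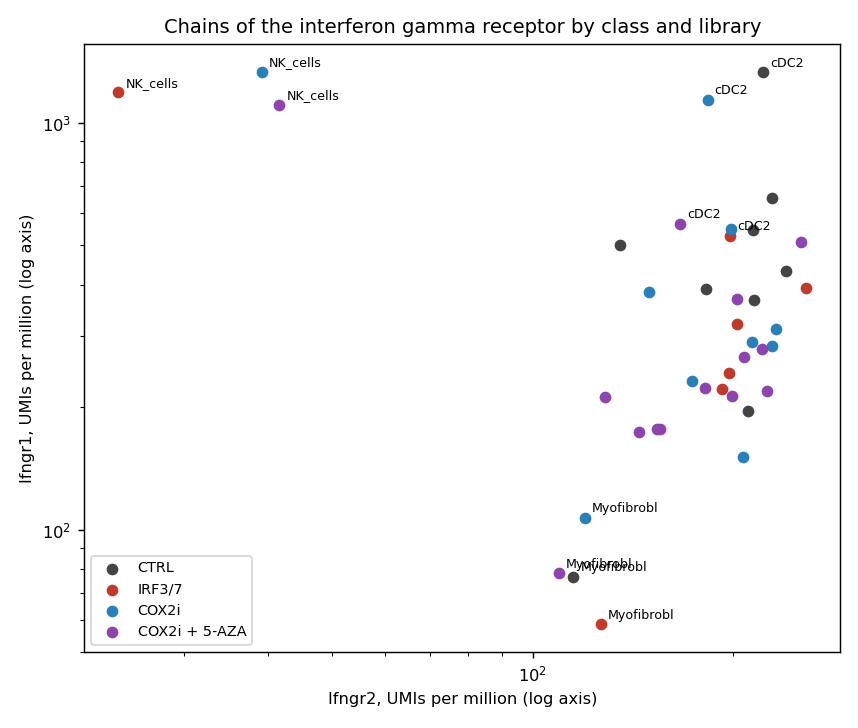
Levels of both interferon-γ receptor chains in each class of 50 or more cells, Ifngr2 on the horizontal and Ifngr1 on the vertical axis, both in CPM on log axes, with 1 point per class and library, coloured by library. NK cells sit apart at the upper left, at 23.9 to 41.7 for Ifngr2 and 1108 to 1337 for Ifngr1.

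Jak2 (ENSMUSG00000024789, chr19:29251828-29313080, plus strand) encodes the kinase brought in by IFNGR2 and by several cytokine receptors. In monocytes and macrophages it measured 61.6 CPM in CTRL, 283 in IRF3/7, 61.1 in COX2i and 122 in COX2i + 5-AZA. IRF3/7 stood 4.60-fold above CTRL, while COX2i and CTRL differed by -0.01 on the log2 scale (95% interval -0.08 to 0.06). COX2i + 5-AZA was higher than CTRL by 0.98 (95% interval 0.92 to 1.04), just short of 2-fold, and by 1.15 with size factors.

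Within classes the differences in Jak2 were smaller, and no class reached 2-fold in any comparison. In Infl_Mono it was 182 CPM in CTRL, 311 in IRF3/7, 231 in COX2i and 281 in COX2i + 5-AZA. The log2 ratio of IRF3/7 to CTRL there was 0.78 (95% interval 0.47 to 1.10), against 2.20 over the pooled cells. Infl_Mono was not alike in all libraries: macrophage markers in it summed to 48333 CPM in CTRL, 9121 in IRF3/7, 16113 in COX2i and 6273 in COX2i + 5-AZA. Monocyte markers in it summed to 4568, 12165, 7296 and 9207 CPM. The part of this difference in the Infl_Mono ratios of Jak2, Stat2, Stat3, Socs1 and Socs3 was not tested. In TAM_C1q Jak2 was 44.4 CPM in CTRL, 45.9 in COX2i and 54.7 in COX2i + 5-AZA, so TAM_C1q held less than Infl_Mono in each of these libraries.

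DCs carried the highest Jak2 levels in each library. In DC3, the CCR7+ DCs, it reached 962 CPM in IRF3/7 and 1027 in COX2i + 5-AZA, and in cDC1 it was 400.4 in COX2i and 517 in COX2i + 5-AZA. cDC2 had 368 CPM in CTRL, 429 in IRF3/7, 369 in COX2i and 449 in COX2i + 5-AZA, a narrow range over the 4 libraries. In CTRL, cDC2 gave 20.3% of all Jak2 UMIs from 4.10% of the UMIs. In COX2i + 5-AZA, DC3 gave 4.05% of the Jak2 UMIs from 0.527% of the UMIs.

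Stat2 (ENSMUSG00000040033, chr10:128270559-128292849, plus strand) encodes the STAT of ISGF3 and is itself an interferon-stimulated gene. In monocytes and macrophages it measured 36.4 CPM in CTRL, 459 in IRF3/7, 51.9 in COX2i and 107 in COX2i + 5-AZA. IRF3/7 stood far above the other 3 libraries, 12.6-fold above CTRL (log2 3.65, 95% interval 3.58 to 3.72). COX2i + 5-AZA was 2.93-fold above CTRL and 2.05-fold above COX2i. Within classes the ratio to COX2i was 2-fold in 1 of 9, with a median of 0.18 on the log2 scale, -0.32 in Infl_Mono and 1.24 in Myofibrobl, and the ratio to CTRL was 2-fold in 4 of 8 with a median of 1.05. The COX2i level was higher than CTRL by 0.51 (95% interval 0.43 to 0.59) on the log2 scale.

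Inside Infl_Mono, Stat2 was 289 CPM in CTRL, 493 in IRF3/7, 305 in COX2i and 245 in COX2i + 5-AZA. The 93 Infl_Mono cells of CTRL thus already held a high level, and the log2 ratio of IRF3/7 to CTRL there was 0.77 (95% interval 0.53 to 1.02). In cDC2 the levels were 67.5, 500.3, 101 and 179 CPM in the same order of libraries, with a log2 ratio of 2.89 between IRF3/7 and CTRL, and the monocyte markers in cDC2 (599.7, 8109, 947 and 2763 CPM) had the same order. In Myofibrobl they were 7.47, 209, 19.7 and 46.5 CPM, the widest gap of the 3 classes compared for IRF3/7 and CTRL, 28.0-fold (95% interval of the log2 ratio 4.46 to 5.17). A Ptprc UMI was found in 16.8% of Myofibrobl cells in CTRL and 22.1% in IRF3/7. Monocyte markers in the class summed to 106, 291, 194 and 248 CPM in the same order of libraries. Whether the class held transduced cancer cells was not tested. Nor was the part of such cells or of these markers in its Stat2, Socs1 and Irf9 ratios.

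COX2i + 5-AZA was at least 2-fold below IRF3/7 for Stat2 in 7 of 7 classes compared, and 0.442% of all genes were 2-fold lower in all 7. The log2 ratios ran from -1.01 in Infl_Mono (95% interval -1.11 to -0.91) to -2.17 in Myofibrobl. Monocyte markers were also lower in COX2i + 5-AZA in each of the 7 classes. They summed to 4001 CPM in IRF3/7 and 930 in COX2i + 5-AZA in DC3, 3939 and 2147 in NK cells, and 291 and 248 in Myofibrobl. Their part in the Stat2 result was not tested. Over monocytes and macrophages the ratio was -2.10 (95% interval -2.15 to -2.06).

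Stat3 (ENSMUSG00000004040, chr11:100885098-100939540, minus strand) encodes the STAT of IL-6 and IL-10 family signals. It measured 206 CPM in CTRL, 338 in IRF3/7, 231 in COX2i and 251 in COX2i + 5-AZA in monocytes and macrophages. The log2 ratio of IRF3/7 to CTRL was 0.71 (95% interval 0.66 to 0.75), below 2-fold, and 1.23 with size factors. In Infl_Mono it was 287 CPM in CTRL, 354 in IRF3/7, 388 in COX2i and 350.0 in COX2i + 5-AZA, and the other 3 libraries lay above CTRL by less than 2-fold.

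Stat3 differed more between classes than between libraries. DC3, with 66 cells in IRF3/7 and 87 in COX2i + 5-AZA, held 1650 and 1412 CPM, the highest levels of those libraries. NK cells came next in these libraries, with 493 and 640.2 CPM, and held 898 CPM in COX2i, from 50 cells. In COX2i too DC3 stood higher, at 1295 CPM (95% interval 1091 to 1525) from 28 cells. cDC2 ranged from 317 CPM in CTRL to 395 in IRF3/7.

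Socs1 (ENSMUSG00000038037, chr16:10782240-10785536, minus strand) encodes the inhibitor that blocks JAK1, JAK2 and TYK2 at interferon receptors. It differed more between libraries than any other of the 9 genes, with 11.0 CPM in CTRL, 374 in IRF3/7, 26.0 in COX2i and 179 in COX2i + 5-AZA in monocytes and macrophages. IRF3/7 stood 34.0-fold above CTRL (log2 5.09, 95% interval 4.97 to 5.21). COX2i + 5-AZA stood 16.3-fold above CTRL (log2 4.03, 95% interval 3.91 to 4.15) and 6.87-fold above COX2i. COX2i was 2.37-fold above CTRL (log2 1.25, 95% interval 1.11 to 1.38).

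The same order was seen as a share of cells. After each cell was thinned to 2000 UMIs, a Socs1 UMI was found in 2.22% of monocytes and macrophages in CTRL, 38.6% in IRF3/7, 4.14% in COX2i and 25.1% in COX2i + 5-AZA. Without thinning these shares were 5.98%, 48.9%, 10.4% and 47.4%, at median depths of 6259.5, 3148, 7611.5 and 6300 UMIs per cell. Thinning left out 212, 975, 187 and 492 cells. Prf1, a gene of cytotoxic lymphocytes that macrophages should lack, was found after thinning in 0.0135%, 1.21%, 0.0278% and 0.493% of the same cells.

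Inside Infl_Mono, Socs1 was 107 CPM in CTRL, 419.8 in IRF3/7, 177 in COX2i and 357 in COX2i + 5-AZA. The log2 ratio of IRF3/7 to CTRL there was 1.97 (95% interval 1.57 to 2.39), smaller than over the pooled cells. In cDC2 the levels were 28.0, 227, 87.7 and 245 CPM in the same order of libraries, with IRF3/7 and COX2i + 5-AZA close together, while the monocyte markers in cDC2 were 599.7, 8109, 947 and 2763 CPM. IRF3/7 was 2-fold or more above CTRL in 3 of 3 classes compared, with log2 ratios from 1.40 in Myofibrobl to 3.02 in cDC2, and 0.901% of all genes were 2-fold higher in all 3.

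The macrophage classes TAM_C1q, TAM_cycling and TAM_Spp1 held 7 to 20 cells in IRF3/7 and were compared between the other libraries. In TAM_C1q, Socs1 was 7.97 CPM in CTRL, 14.6 in COX2i and 109.8 in COX2i + 5-AZA. In TAM_cycling, the proliferating macrophages, it was 6.28, 19.4 and 134 CPM. In TAM_Spp1, the macrophages named for osteopontin, it was 16.2, 29.1 and 182 CPM.

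In each of these classes COX2i lay between the other 2 libraries and nearer to CTRL, and COX2i + 5-AZA was 13.8-fold above CTRL in TAM_C1q and 21.3-fold above it in TAM_cycling. The 4 measured monocyte markers in TAM_C1q summed to 1498 CPM in CTRL, 1728 in COX2i and 1901 in COX2i + 5-AZA, most of it from C5ar1 and Fcgr1. Of the other monocyte markers, Plac8 was 8.95, 24.1 and 142 CPM and Ms4a4c was 38.5, 41.1 and 98.3 CPM in the same order. The 5 NK markers summed to 0.512, 1.19 and 20.6 CPM. Macrophage markers in TAM_C1q summed to 59464, 29933 and 32380 CPM, and DC markers to 154, 338 and 676 CPM. NK markers summed to 0.127, 1.95 and 12.3 CPM in TAM_cycling and to 0.484, 2.05 and 14.9 CPM in TAM_Spp1. The part of these markers in the Socs1 results was not tested. After thinning, a Socs1 UMI was found in 1.74%, 1.87% and 14.0% of TAM_C1q cells.

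Over all classes compared, Socs1 was at least 2-fold higher in COX2i + 5-AZA than in CTRL in 8 of 8, and 0.591% of all genes were 2-fold higher in all 8. The log2 ratios ran from 1.44 in Myofibrobl to 5.36 in neutrophils, where CTRL had 4 Socs1 UMIs (13.0 CPM) and COX2i + 5-AZA had 532 CPM. In that class macrophage markers were 33355 CPM in CTRL and 4439 in COX2i + 5-AZA, and neutrophil markers 24461 and 89640. Against COX2i, COX2i + 5-AZA was 2-fold higher in 7 of 9 classes, where 0.278% of all genes were 2-fold higher in at least 7. The ratios ran from 0.35 in NK cells to 2.91 in TAM_C1q. COX2i was 2-fold above CTRL in 3 of 7 classes, where 1.24% of all genes were 2-fold higher in at least 3, and its ratios ran from -0.40 in Myofibrobl to 2.85 in Ctsk_Macro.

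Between COX2i + 5-AZA and IRF3/7 no class reached 2-fold for Socs1, with log2 ratios from -0.71 in NK cells to 0.44 in TAM_H2Ab1. Over monocytes and macrophages the ratio was -1.06 (95% interval -1.10 to -1.02), whereas the mean over classes was 0.12. The direction of this pooled ratio therefore changed when each class was given equal weight. Stat2, by contrast, was lower in COX2i + 5-AZA both over the pooled cells and in each class.

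**Figure D3:**
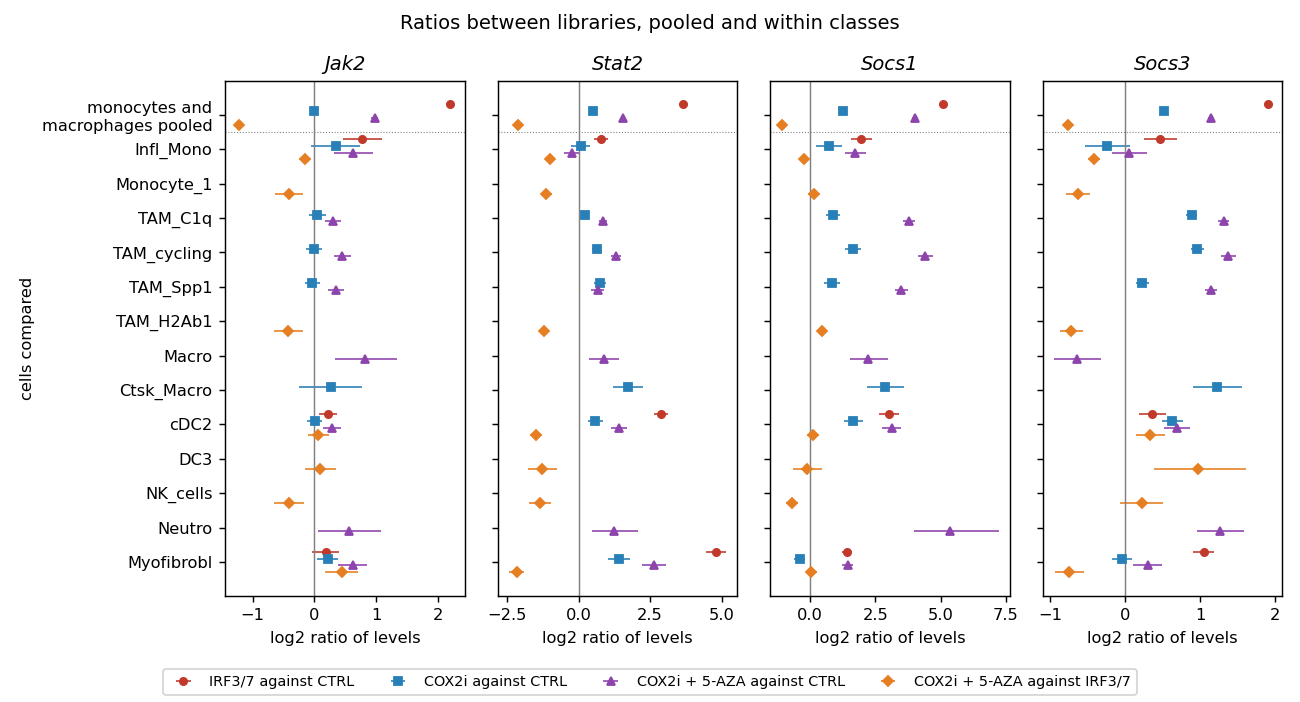
Log2 ratios of levels for Jak2, Stat2, Socs1 and Socs3, 1 panel per gene, over monocytes and macrophages pooled (top) and within each class that had 50 or more cells in each library compared, for 4 comparisons marked by colour and shape, with exact conditional 95% intervals as bars. Socs1 in COX2i + 5-AZA against CTRL lies at 1.44 to 5.36 within classes, Stat2 in COX2i + 5-AZA against IRF3/7 lies at -1.01 to -2.17, and Jak2 in IRF3/7 against CTRL lies at 2.20 pooled and 0.78 in Infl_Mono.

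Socs3 (ENSMUSG00000053113, chr11:117966079-117970047, minus strand) encodes the inhibitor that acts on receptors of the IL-6 family and on the G-CSF receptor. It measured 128 CPM in CTRL, 480.4 in IRF3/7, 183 in COX2i and 282 in COX2i + 5-AZA in monocytes and macrophages. IRF3/7 stood 3.74-fold above CTRL and COX2i + 5-AZA 2.20-fold above it (log2 1.14, 95% interval 1.10 to 1.18). COX2i was higher than CTRL by 0.51 (95% interval 0.47 to 0.56) on the log2 scale.

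Inside Infl_Mono, Socs3 was 372 CPM in CTRL, 513 in IRF3/7, 314 in COX2i and 386 in COX2i + 5-AZA, so the 4 libraries lay within 2-fold of each other. In TAM_C1q it was 115 CPM in CTRL, 212 in COX2i and 285 in COX2i + 5-AZA. In TAM_cycling it was 74.7, 146 and 194 CPM, again with COX2i between the other libraries. Macro ran the other way, with 315 CPM in CTRL and 202 in COX2i + 5-AZA.

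Genes of a list of 13 known to be induced by cell dissociation were also higher in IRF3/7. The summed level of this list in monocytes and macrophages was 7131 CPM in CTRL, 18240 in IRF3/7, 7229 in COX2i and 11643 in COX2i + 5-AZA, and 8 of the 13 were 2-fold higher in IRF3/7 than in CTRL, against 9.16% of all genes. Their part in the Socs3 result was not tested.

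**Figure D4:**
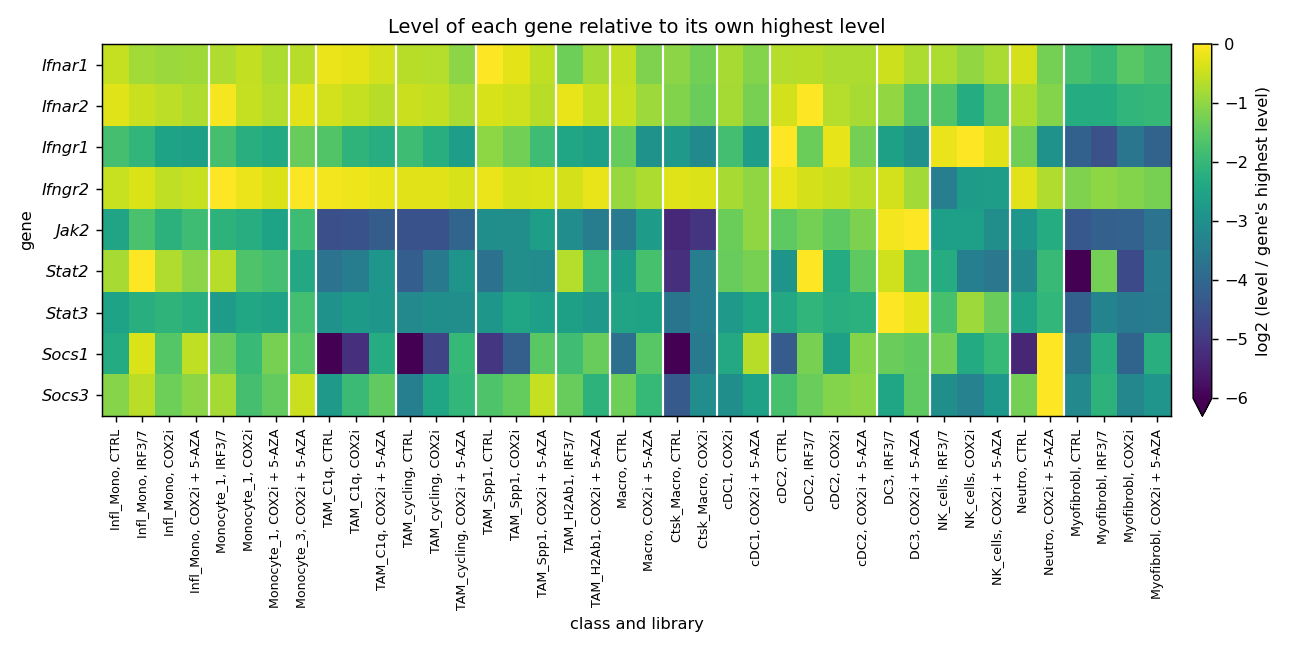
Level of each gene (rows) in each class of 50 or more cells and library (columns), as the log2 of its level over that gene's own highest level, so that 0 in yellow marks the highest and dark colours mark low levels. Jak2 and Stat3 were highest in DC3 (962 to 1027 and 1412 to 1650 CPM), Ifngr1 in NK cells and in cDC2 of CTRL and COX2i, and Socs1 in neutrophils of COX2i + 5-AZA (532 CPM).

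Promoter sequence is shown for Socs1, Stat2 and Socs3 because these are the genes of the 9 that were 2-fold above CTRL in both IRF3/7 and COX2i + 5-AZA and each has a STAT-type motif near its start. The windows are RefSeq promoters on GRCm38.p6, from 250 bases before to 50 after the annotated start, and all 9 genes had one. An ISRE-like match was GAAANNGAA or its reverse complement TTCNNTTTC, found in 8.56% of 32851 windows. A GAS-like match was the palindrome TTCNNNGAA, found in 8.30% of them. Capitals mark the matched letters, and the stretches are written 5′ to 3′ on the strand of the gene, at chr16:10785585-10785639 (minus) for Socs1, chr10:128270257-128270305 (plus) for Stat2 and chr11:117969492-117969540 (minus) for Socs3.
Socs1: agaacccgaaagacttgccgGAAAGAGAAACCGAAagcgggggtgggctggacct
Stat2: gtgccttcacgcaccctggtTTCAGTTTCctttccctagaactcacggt
Socs3: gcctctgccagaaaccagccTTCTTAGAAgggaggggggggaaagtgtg

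Socs1 held 2 overlapping ISRE-like matches, which begin at positions -83 and -77 relative to the RefSeq start. Stat2 held 1 ISRE-like match on the opposite strand at -221, and Socs3 held 1 GAS-like match at -154. For Socs3 the RefSeq start lies inside the gene coordinates given above, and so does the printed stretch. Among the receptor genes, Ifnar2 had a GAS-like match at -214 and Ifnar1 had one at -5. No match of either kind was found in the windows of Ifngr1, Ifngr2, Jak2 and Stat3. A match of these letters is a description of the sequence and not a measured binding site.

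The remaining genes of the pathway were read from lists of the same roles, as counts of 2-fold ratios in monocytes and macrophages. The shares over all genes, 9.16% higher and 32.2% lower in IRF3/7 than in CTRL, 1.93% and 4.7% in COX2i, and 5.65% and 11.3% in COX2i + 5-AZA, apply to these counts too. Jak1 lay between 139 and 193 CPM, and Tyk2 between 32.5 and 55.4. Irf9, the DNA-binding partner of STAT2 in ISGF3, was 60.8 CPM in CTRL, 154 in IRF3/7, 71.1 in COX2i and 86.0 in COX2i + 5-AZA. Its log2 ratio of IRF3/7 to CTRL was 1.34 over the pooled cells and 0.21 (95% interval -0.15 to 0.58) in Infl_Mono.

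Of 8 measured ISGF3 targets, 8 were 2-fold higher in IRF3/7 than in CTRL, 0 in COX2i and 8 in COX2i + 5-AZA, and 8 were 2-fold lower in COX2i + 5-AZA than in IRF3/7, against 6.63% of all genes. Relative to CTRL, their median log2 ratio was 5.36 for IRF3/7 and 1.92 for COX2i + 5-AZA, and the latter lay at -3.13 relative to IRF3/7. Within monocyte and macrophage classes the median was much nearer to 0, at 0.31, 0.75 and -1.26, where the first rests on Infl_Mono alone. Isg15, an ubiquitin-like ISGF3 target, was 75.6 CPM in CTRL, 5007 in IRF3/7, 136 in COX2i and 626 in COX2i + 5-AZA.

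Of 10 STAT3 targets, 5 (Pim1, Bcl3, Junb, Bcl6 and Il1rn) were higher and 1 (Myc) lower in IRF3/7 than in CTRL, and 2 (Pim1 and Il1rn) were higher in COX2i + 5-AZA. Junb is also on the list of dissociation genes, and the part of dissociation in these counts was not tested. Pim1, a kinase gene, was 292 CPM in CTRL, 1242 in IRF3/7, 356 in COX2i and 675 in COX2i + 5-AZA, the same order as Socs3. The median log2 ratio of the list in IRF3/7 against CTRL was 1.05 over the pooled cells and 0.62 in Infl_Mono.

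Of 15 other negative regulators, 3 (Usp18, Cish and Ptpn1) were 2-fold higher in IRF3/7 than in CTRL and 2 (Usp18 and Cish) in COX2i + 5-AZA, while 1 (Socs2) was lower in COX2i. Their median log2 ratio in IRF3/7 against CTRL was 0.22 pooled and 0.45 in Infl_Mono. Usp18, which binds IFNAR2 and damps type I interferon signalling, was 14.7 CPM in CTRL, 694 in IRF3/7, 26.7 in COX2i and 72.5 in COX2i + 5-AZA. These pooled levels were not compared within classes, nor were those of Isg15, Pim1 and Csf3r. Of 10 other measured cytokine receptor genes, 9 had at least 20 UMIs in IRF3/7 and CTRL together. Of these 9, 2 (Csf3r and Il10ra) were higher and 1 (Il27ra) lower in IRF3/7 than in CTRL. Their median log2 ratio was -0.19 pooled and -0.35 in Infl_Mono. Csf3r, the G-CSF receptor that SOCS3 inhibits, was 59.6 CPM in CTRL, 412 in IRF3/7, 30.1 in COX2i and 97.8 in COX2i + 5-AZA. It is also one of the neutrophil markers used here. Of the others, S100a8 was 44.8, 699, 11.5 and 350 CPM in the same cells and order. S100a9 was 27.8, 87.8, 6.84 and 98.7 CPM, and Cxcr2 was 1.72, 10.4, 0.24 and 2.25 CPM. Their part in the Csf3r result was not tested.

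The genes closest to each member were found by Pearson's r of log2(CPM + 1) over 40 class and library units and 10946 genes. The units share libraries and classes, so r is a description. Stat2 lay closest to Ifi211 (r = 0.944), Parp9 and Ifi35, and Socs1 to Irf1 (r = 0.916), Irgm1 and Cd274. Socs3 lay closest to Zfp36 (r = 0.914), Atf3 and Cd300lf, and Jak2 to Lsp1 (r = 0.925). Zfp36 and Atf3 are also on the list of dissociation genes. Stat3 was closest to Stat5a (r = 0.914), Ifnar1 to Cyth1 (r = 0.854) and Ifnar2 to Cd300c2 (r = 0.947). For Ifngr1 the closest gene was Def6 (r = 0.865) and for Ifngr2 it was Sumf1 (r = 0.906). Between members r was 0.75 for Jak2 and Stat3, 0.73 for Stat2 and Socs1, 0.69 for Ifnar1 and Ifnar2, and -0.23 for Ifngr1 and Ifngr2.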

How the data were processed

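The deposited matrix held whole-number UMI counts per gene and cell, which the authors made with Cell Ranger 7.1.0 on mm10 (as the submitters' processing notes name them) and filtered, and the authors' cell table gave each cell's library and class. Counts were summed per class and library in Python 3.11.15 (numpy 2.4.6, scipy 1.17.1, pandas 2.3.3, matplotlib 3.10.9), and CPM scales each sum to 1000000 UMIs of that class. Levels have exact Poisson intervals, and ratios have exact conditional 95% intervals. Classes were compared where each library held 50 or more of their cells. Scripts were tested on simulated data. Doublets were not called here. The members and lists were chosen with earlier results of these data known. The text names every member, up to 3 genes of each list with the widest ratio and at least 200 UMIs, Jak1, Tyk2 and Irf9, and of the 3 genes of highest r at least the first. Genes given in brackets after a list count were named after their values were seen. Alternatives were other scalings, thinning, leaving out cells with 2000 or fewer genes, shared barcodes or the top 5% of cells, per-cell means, class means and all cells. Ly6c2 and several interferon genes (Ifnb1 among them) were not analysed here, and some items of the pathway and of the line are not reported here.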

Additional observations from a re-analysis of the deposited data

How the results depend on the processing

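Of the 45 ratios of the 9 genes in monocytes and macrophages over 5 comparisons, 13 were 2-fold. The number still 2-fold was 13 with size factors, 13 without shared barcodes, 13 without the top 5% of cells, 12 with cells of over 2000 genes, 11 after thinning, 10 with per-cell means, 10 over all cells and 5 as a mean over classes. Ratios that became 2-fold numbered 4 with size factors, 2 with cells of over 2000 genes, 2 without the top 5% of cells, 1 without shared barcodes, 1 with per-cell means and 0 under the other 3 settings. Genes 2-fold higher in IRF3/7 than in CTRL numbered 1 as a mean over classes, which there rests on 1 class, Infl_Mono. Genes 2-fold higher in COX2i than in CTRL numbered 0 over all cells, and those in COX2i + 5-AZA against CTRL numbered 1 as a mean over classes. Against COX2i, the number higher in COX2i + 5-AZA was 1 (Stat2 was lost) with per-cell means and 1 as a mean over classes. Against IRF3/7, the number lower in COX2i + 5-AZA was 1 after thinning, 1 with per-cell means, 1 as a mean over classes and 1 over all cells. The log2 ratio of Socs1 between COX2i + 5-AZA and IRF3/7 reversed to 0.12 as a mean over classes, and the cause was not tested. With 1 library per group, animal, tumour pool and library cannot be told apart from the group. No paired analysis was possible because each group had 1 library. Of the cells, 1201 had 1000 or fewer detected genes.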

Other observations

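Genes of interferon-γ and of cytokines that activate STAT3 through other receptors also differed between libraries. Ifng, which encodes interferon-γ, had 7 UMIs in CTRL, 1437 in IRF3/7, 37 in COX2i and 696 in COX2i + 5-AZA over all cells. Monocytes and macrophages held 3, 24, 3 and 52 of these, so in IRF3/7, COX2i and COX2i + 5-AZA most came from other classes. Il27, a cytokine of activated myeloid cells whose receptor activates STAT3, was 2.91 CPM in monocytes and macrophages of CTRL, 80.5 in IRF3/7, 5.92 in COX2i and 33.2 in COX2i + 5-AZA. Il6 was 0.878, 18.3, 0.768 and 4.56 CPM in the same order, and Osm, of the IL-6 family, was 159, 278, 136 and 273 CPM. Of 8 measured ligand genes, 4 (Ifng, Il27, Il6 and Il10) were 2-fold higher in IRF3/7 than in CTRL and 3 (Ifng, Il27 and Il6) in COX2i + 5-AZA, where 1 (Il11) was lower. Their median log2 ratio in IRF3/7 against CTRL was 0.93 pooled and 1.14 in Infl_Mono. In COX2i against CTRL 7 of the ligand genes had at least 20 UMIs. Among them 1 (Il27) was 2-fold higher and 2 (Il10 and Il11) lower in COX2i, with a median log2 ratio of -0.22. The shares over all genes there were 1.93% higher and 4.7% lower. Of all genes, 9.16% were 2-fold higher in IRF3/7 than in CTRL, and in COX2i + 5-AZA 5.65% were higher and 11.3% lower. The count for Ifng rests on the UMIs above, and NK markers in the same monocytes and macrophages summed to 0.348 CPM in CTRL, 36.2 in IRF3/7, 1.79 in COX2i and 15.4 in COX2i + 5-AZA. Their part in the result was not tested. Ifng was named outside the rule for names, after its values were seen.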
